A study of Mus musculus with 12 samples.

Results

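CNOT6L-specific enrichment was read from 12 arrays of mouse primary hepatocyte RNA. It is the change from input to immunoprecipitate (IP) in wild-type cells, less the same change in cells that lack Cnot6l. The double difference was taken within each of the 3 replicate numbers of the sample titles and averaged over them, and it used all 12 of the 12 arrays. Of 15780 named genes, 9496 passed a filter on dim probe sets and are described here. The 4 groups had 3 arrays each. Wild-type input and wild-type IP came from hepatocytes of 8-week-old male C57BL/6J mice, and knockout input and knockout IP from Cnot6l knockout mice of the same age, sex and strain. In each case a hepatocyte preparation gave both an input RNA and an RNA recovered with an antibody against CNOT6L. The knockout was the negative control of the precipitation. The titles call the replicates biological, and nothing else in the labels says whether each came from a separate animal, so the p-values measure the spread between these samples. The labels do not say how the knockout allele was made. The amount of RNA recovered in a precipitate is not measured by an array, so every value is relative to the other transcripts on the same array.

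CNOT6L is one of the deadenylases of CCR4-NOT, a large complex that trims poly(A) tails. Deadenylation is usually the first step of mRNA decay, and its choice of targets depends on proteins that bind the mRNA and recruit the complex, such as tristetraprolin and its relatives at AU-rich elements or the BTG and TOB adaptors. Transcripts of immediate early genes, cytokines and feedback inhibitors of signalling are known for short half-lives. A transcript that is held by CNOT6L would be recovered in a wild-type IP and not in a knockout IP. A double difference above 0 can arise in another way as well, since a transcript that is at its input level in the wild-type IP and below it in the knockout IP gives the same number.

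The largest specific enrichments belonged to Zfp36 (3.48 on the log2 scale), Tec (3.37), Nfkbia (3.34), Adamts1 (3.25), F3 (3.23), Fgf21 (3.13) and Tent5a (3.11). The upper tail was longer than the lower: 50 genes of the high set defined next reached 2 or more, and the lowest value of any tested gene was -1.69, for Loxl2. Over the 9496 tested genes the median was 0.05, with medians of 0.10, 0.06 and -0.03 in numbers 1, 2 and 3. The medians of IP minus input were -0.11 in wild type and -0.21 in knockout, and quantile normalization brought both to -0.04. Specific enrichment was above 0 in 55.8% of tested genes on the deposited scale, in 46.7% after quantile normalization and in 48.5% after median centring, so the sign of a value near 0 depends on the scaling.

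The spread between the numbers was large beside most single values. Across genes, which are not independent replicates, the double differences correlated at r = 0.254 between numbers 1 and 2, 0.171 between 1 and 3 and 0.321 between 2 and 3. Number 1 had 1038 genes at 1 or more, number 2 had 609 and number 3 had 767. Of all tested genes, 124 reached 1 in each number, and 1 gene was at or below -1 in each number. A double difference above 0 in all 3 numbers was seen in 2029 genes (21.4%), and below 0 in all 3 in 1300 (13.7%).

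In the limma fit of the 4 group means, 1 gene was called higher in specific enrichment (0.0105% of tested genes) and 0 lower, at a Benjamini-Hochberg adjusted p under 0.05. Before adjustment, 174 genes (1.83%) were higher and 14 (0.147%) lower at p under 0.05. The gene called was Tec, which encodes a non-receptor tyrosine kinase. Treating each hepatocyte preparation (the input and IP that share a genotype and number) as a replicate block gave 2 genes (0.0211%), Tec and Adamts1. With the number within each fraction as the replicate block, which compares each wild-type array with the knockout array of the same number and fraction, 34 genes were called higher (0.358%) and 0 lower. Of these 34, 21 belonged to the rise class described next, 13 to the rise and fall class and 0 to the fall only class. The classes were cut from the same values, so this split describes the calls and tests nothing. By limma on the 3 double differences alone, 0 genes were called in either direction.

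Genes were separated by where the difference arose. The high set held genes with a mean of at least 1, a 2-fold difference, and a value above 0 in each number. A gene was placed in the rise class when its wild-type IP minus input was at least 0.5 and above 0 in each number. It was placed in the fall only class when its knockout IP minus input was at most -0.5 and below 0 in each number and the wild-type step was not met. Genes that met both steps form the rise and fall class. These are classes of values, not calls of a test. The high set had 379 genes (3.99% of tested genes), of which 195 were rise (51.5% of the set), 56 rise and fall (14.8%), 99 fall only (26.1%) and 29 neither (7.65%). The corresponding low set, with a mean of at most -1 and below 0 in each number, had 32 genes (0.337%). The high set thus made up 92.2% of both sets together, 85.2% after quantile normalization and 88.5% after median centring. At the edge of the high set, Zfp53 (1.0) and Cxcl10 (1.006) were just inside, and Chst12 (0.9988) and Sertad3 (0.9997) just outside.

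**Figure D1:**
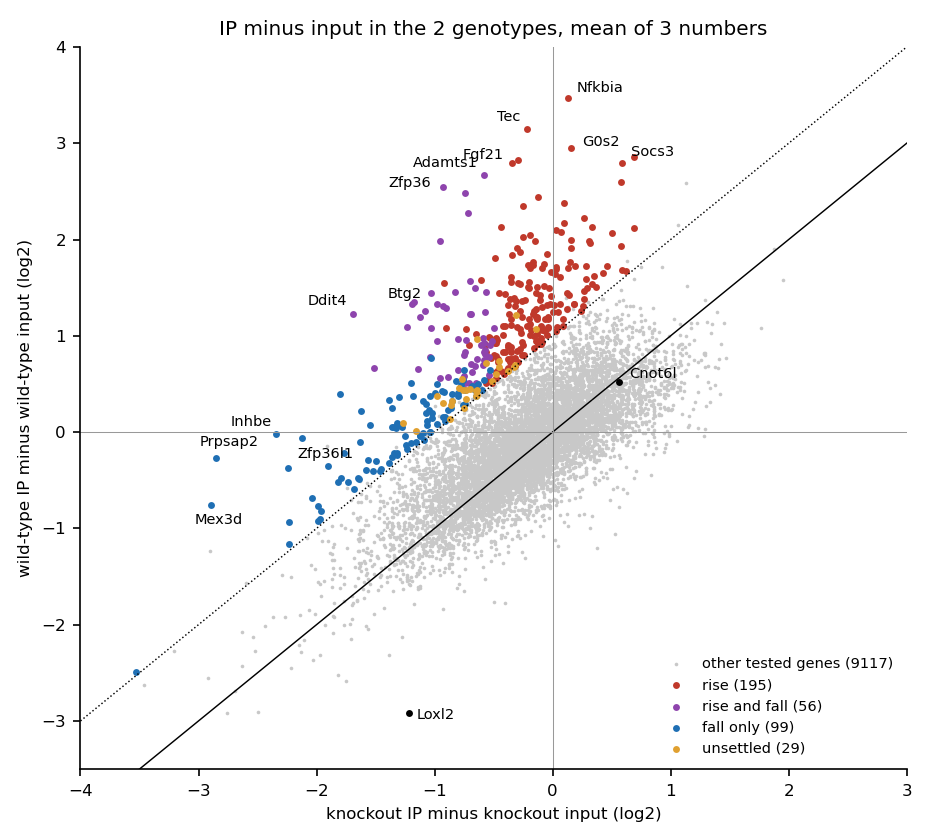
Mean wild-type IP minus input (vertical axis, log2) against mean knockout IP minus input (horizontal axis, log2), 1 point per tested gene. The solid line marks equal change in both genotypes and the dotted line a specific enrichment of 1. The 195 rise genes lie above the dotted line around a median knockout change of -0.18, while the 99 fall only genes lie to the left around a median wild-type change of 0.07.

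In the rise class the median specific enrichment was 1.39, made of a median wild-type change of 1.26 and a median knockout change of -0.18, and 51 of its 195 genes had a knockout change at or above 0. The rise and fall class had medians of 1.73, 0.95 and -0.73 for the same 3 quantities. Fall only genes had medians of 1.18, 0.07 and -1.20, with a wild-type change at or below 0 in 44 of 99. Each number reached 1 in 73 rise genes (37.4%), 36 rise and fall genes (64.3%) and 14 fall only genes (14.1%). The rule used these same double differences, so the shares describe the classes and test nothing. The median SD of the double difference over the numbers was 0.52 in rise, 0.59 in rise and fall and 0.69 in fall only, against 0.39 in all tested genes.

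The fall only class was uneven over the numbers. Its median knockout change was -1.49 in number 1, -0.75 in number 2 and -1.11 in number 3, and 71, 37 and 57 of its 99 genes were at or below -1 in the 3 numbers. The median wild-type change of the rise class was 1.15, 1.52 and 1.06. Without number 1, 47 of the 99 fall only genes met the same rule (of 113 that then did), without number 2, 83 (of 241), and without number 3, 62 (of 198). The rise class kept 145, 118 and 153 of its 195 genes in the same order. With 1 number left out, the rule asks for the sign only in the 2 that remain. Quantile normalization kept 162 rise genes, 66 fall only genes and 22 of the 56 rise and fall genes, and moved Zfp36, Adamts1, Papolg, Ccng2, Bud13, Dusp6 and Id2, among others, from rise and fall to rise. The rise and fall class had 91 genes without number 2, which included 39 of its 56.

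**Figure D2:**
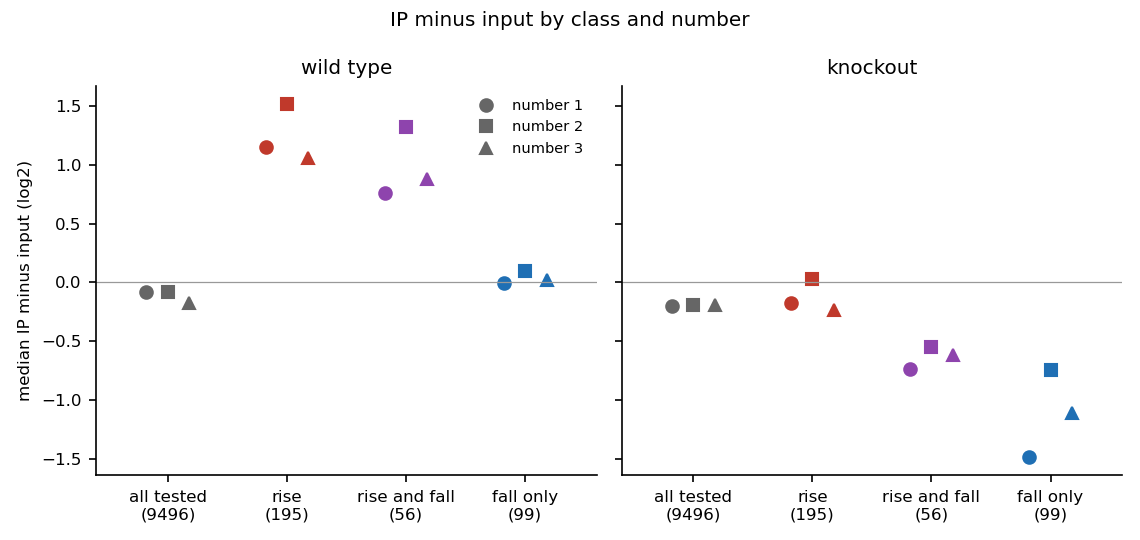
Median IP minus input (log2) in wild type (left) and knockout (right) for all tested genes and the 3 classes, with 1 symbol per replicate number. Rise genes lie between 1.06 and 1.52 in wild type, and fall only genes between -1.49 and -0.75 in knockout.

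Arrays that did not overlap tell the classes apart on the level scale. All 3 wild-type IP arrays lay above the 9 other arrays in 96 of 195 rise genes (49.2%), 18 rise and fall genes (32.1%) and 1 fall only gene, against 2.33% of tested genes. All 3 knockout IP arrays lay below the 9 others in 27 fall only genes (27.3%), 7 rise and fall genes and 1 rise gene, against 1.23% of tested genes. The rule used these levels, so the shares describe the classes and test nothing. The inputs added little at the median: knockout minus wild-type input had a median of 0.07 in the high set. In 374 of its 379 genes, wild-type IP minus knockout IP was at least 0.5 times the size of the specific enrichment. The same held in 4321 of 9496 tested genes and, as the IP difference keeps its sign, in 0 of 32 low-set genes. High-set genes were chosen for a large value, so this count describes them and tests nothing. Between the inputs 0 genes were called in either direction by limma, and at p under 0.05 before adjustment 3 were higher in knockout (0.0316%) and 2 lower (0.0211%). That fit ignores the pairing by number, and its spread is shared with the IP arrays. Its few calls therefore do not show that the inputs were alike. With the number within fraction as block, 0 genes were also called in either direction. A level in a bulk input cannot tell fewer cells of a type from less RNA per cell.

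The level of Cnot6l itself was 8.44, 9.51 and 9.11 in the wild-type inputs of numbers 1 to 3, and 9.12, 9.23 and 9.34 in the knockout inputs. The wild-type IPs gave 9.11, 10.65 and 8.85, and the knockout IPs 9.29, 10.63 and 9.46. The groups overlapped throughout. Knockout input was 0.21 above wild-type input (exact permutation p = 0.7, two-sided, smallest possible p 0.1), and its specific enrichment was -0.04. The sources used here give neither the deleted part of the gene nor the position of the probes, and this probe set therefore does not check the labels. Of the hepatocyte markers, 8 of 8 on the array passed the filter and Alb averaged 14.88 in the inputs. Their summed level was 16.31 to 16.81 in the inputs and 15.84 to 16.51 in the IPs. Of 11 macrophage markers on the array 2 passed, Csf1r and Cd68, and Clec4f, Vsig4, Adgre1, Cd163, Marco, the 3 C1q genes and Timd4 did not. The macrophage sum was 11.63 to 12.34 in the inputs and 10.65 to 11.22 in the IPs, with Cd68 the highest marker. Of the other markers, 4 of 8 sinusoidal endothelial, 5 of 8 stellate, 2 of 5 cholangiocyte, 2 of 7 lymphocyte, 1 of 4 neutrophil and 1 of 1 erythroid genes passed. The neutrophil sum was 7.6 to 8.81 in the knockout IPs, 6.76 to 7.58 in the wild-type IPs and 6.76 to 7.54 in the inputs, with Cxcr2 the highest marker. The lymphocyte sum was 7.9 to 8.08 in the knockout IPs, 7.44 to 7.8 in the wild-type IPs and 7.48 to 7.86 in the inputs. Most markers of these 2 types were dim, with a median input level of 4.03 for lymphocytes and 4.36 for neutrophils. Dim probe sets as a whole were also raised in the knockout IPs, with a 10th percentile of 3.85 to 4.26 against 3.77 to 3.91 in the wild-type IPs. Whether the sums reflect RNA of such cells was not tested. The sums of the endothelial, stellate, cholangiocyte and erythroid markers overlapped between all 4 groups. The part of these markers in any gene's value was not tested.

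Array-wide controls differed between IP and input more than between genotypes. The bacterial poly-A controls were 4.01 to 5.27 higher in IP than in input in wild type and 4.27 to 5.41 higher in knockout, and their double differences were -0.14, -0.25 and -0.20 in numbers 1, 2 and 3. The hybridisation controls were higher in IP by 2.45 to 5.17 in wild type and by 3.66 to 5.04 in knockout, with double differences of 0.13, -1.44 and -0.48. The gap between 3′ and 5′ probe sets, which widens as RNA shortens, grew from input to IP by 0.85 to 1.95 in wild type and 0.85 to 1.66 in knockout for Gapdh, and by 1.38 to 1.91 and 1.38 to 1.62 for beta-actin. It had double differences of -0.22, 0.03 and 0.29 for Gapdh and 0.00, -0.03 and 0.43 for beta-actin. The 10th percentile of named probe sets was raised from input to IP by 0.31 to 0.45 in wild type and by 0.41 to 0.72 in knockout, a double difference of -0.35 in number 1, -0.10 in number 2 and -0.16 in number 3. The part of these shifts in any gene's value was not tested.

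In the rise class, Tec was at 8.35, 8.87 and 8.65 in the wild-type inputs, 11.49, 12.17 and 11.66 in the wild-type IPs, 8.61, 8.88 and 8.41 in the knockout inputs and 8.58, 8.39 and 8.25 in the knockout IPs. The 3 wild-type IP arrays stood apart from the 9 others, which lay within 8.25 to 8.88. Its specific enrichment was 3.37 ± 0.40 (SE, n = 3 per group), or 10.4-fold, with limma adjusted p = 0.0219. Same-number values were 3.16, 3.78 and 3.18. The call held without wild-type IP array 1 (adjusted p = 0.0417) or knockout IP array 1 (0.0285). It was lost, at adjusted p of 0.0617 to 0.142, without any other single array, although the value stayed between 3.18 and 3.5. On the 3 double differences alone the adjusted p was 0.0778, and without a whole number 0.726 to 1.0.

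Nfkbia encodes IκBα, which holds NF-κB in the cytoplasm and is itself induced by NF-κB. Its levels were 10.44, 10.36 and 10.95 in wild-type input, 14.29, 13.80 and 14.06 in wild-type IP, 10.75, 10.78 and 10.95 in knockout input and 11.69, 10.22 and 10.98 in knockout IP. The wild-type IPs were above all other arrays, and the knockout IPs fell on both sides of their inputs. Specific enrichment was 3.34 ± 0.51 (SE), with limma adjusted p = 0.116, and 0.00907 with the number within fraction as block. Other genes of the IκB family differed: Nfkbib had 0.22 and Nfkbie -0.06, while Nfkbiz, a rise and fall gene, had 1.4. Bcl3, a nuclear protein of the IκB family, had 2.14 ± 0.72, with adjusted p = 0.0186 under that block.

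The Nfkbia promoter is shown because Nfkbia led the feedback inhibitors in the rise class and holds a match to the NF-κB motif. The 200 bases before the RefSeq start (GRCm38.p6, chr12:55492648-55492847, minus strand) hold the match, in capitals, 29 to 20 bases before the start.
Nfkbia: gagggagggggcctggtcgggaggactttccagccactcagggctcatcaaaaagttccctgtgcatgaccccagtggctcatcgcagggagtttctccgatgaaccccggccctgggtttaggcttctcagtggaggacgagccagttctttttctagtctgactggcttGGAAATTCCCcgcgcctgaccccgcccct

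Fgf21 encodes a hormone that hepatocytes secrete in fasting and stress. It was at 7.49, 7.39 and 6.94 in wild-type input, 10.01, 10.43 and 9.75 in wild-type IP, 7.6, 7.41 and 6.98 in knockout input and 6.48, 7.61 and 6.88 in knockout IP. The 3 wild-type IPs lay above all other arrays, and knockout IP 1 was the lowest of all 12. Specific enrichment was 3.13 ± 0.49 (SE), with limma adjusted p = 0.116, and 0.00907 with the number within fraction as block. G0s2, an inhibitor of the lipase ATGL, had 8.24, 8.21 and 9.15 in wild-type input, 11.03, 12.16 and 11.26 in wild-type IP, 8.53, 8.51 and 8.70 in knockout input and 8.31, 9.11 and 8.80 in knockout IP. The wild-type IPs were again apart, and the knockout IPs were within the range of the inputs. Its specific enrichment was 2.79 ± 0.53 (SE), with adjusted p = 0.365 in limma and 0.017 under the same block.

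All 10 genes that limma called in wild-type IP minus input (0.105% of tested genes, 0 called lower) were rise genes: Tec, Nfkbia, G0s2, Fgf21, Irf1, Socs3, Cnot8, Dusp1, Frs3 and Taf5. Before adjustment, 435 genes (4.58%) were higher in wild-type IP and 573 (6.03%) lower at p under 0.05. The count of 10 became 2 without wild-type input array 1 or 2, 5 without wild-type input array 3, 6 without wild-type IP array 2 or 3 or any knockout input array, and 0 without a whole number. The class was chosen with this wild-type change, so its overlap with those calls describes it. In knockout IP minus input limma called 0 genes, and 282 genes (2.97%) were higher and 760 (8%) lower when p was left unadjusted. With the preparation as block, 229 genes were called higher in wild type (2.41%), 113 of them rise and 20 rise and fall, and 438 lower (4.61%). Under that block 501 genes were called lower in knockout (5.28%), 42 of them fall only, 3 rise and fall and 0 rise, and 69 higher (0.727%). Fall only genes were chosen with this knockout change, and rise genes by not meeting that step. The split of these calls over the classes therefore describes the classes and tests nothing.

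Among these genes, Socs3, an inhibitor of JAK kinases, was at 6.23, 5.83 and 7.03 in wild-type input, 9.41, 8.73 and 9.35 in wild-type IP, 6.21, 6.04 and 6.86 in knockout input and 6.70, 6.87 and 7.32 in knockout IP. Every knockout IP was above its own input, so the subtraction lowered the wild-type change: 2.80 became a specific enrichment of 2.21 ± 0.53 (limma adjusted p = 0.782, and 0.0377 with the number within fraction as block). Taf5, a TFIID subunit, went the same way, from 2.86 in wild type to 2.16 after a knockout change of 0.69. Frs3, an adaptor of FGF receptors, had 1.67 in wild type, 0.62 in knockout and 1.05 after subtraction. Cnot8, which encodes a deadenylase of the same complex as CNOT6L, had 9.86, 10.69 and 10.20 in wild-type IP and 8.01 to 8.77 on the 9 other arrays. Its specific enrichment was 1.84 ± 0.43, with limma adjusted p = 0.712 and 0.0168 under the block. Its close relative Cnot7 had 0.28, since it was 1.36 lower than input in the wild-type IP and 1.64 lower in the knockout IP.

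Leap2, which encodes a liver peptide that binds the ghrelin receptor, shows what the same-number subtraction removes. Its level was 9.50, 11.62 and 6.63 in wild-type input, 11.48, 13.82 and 9.76 in wild-type IP, 11.29, 11.53 and 7.04 in knockout input and 10.56, 11.32 and 7.61 in knockout IP. The numbers differed by far more than the groups, so the groups overlapped. The 3 double differences were nevertheless 2.71, 2.41 and 2.57. The SE of the fit without a block was 2.18, and the adjusted p was 1.0, or 0.152 with the number within fraction as block. Fos, a partner of Jun in AP-1, was similar, with wild-type inputs of 7.64, 8.88 and 9.47, same-number values of 2.79, 2.75 and 2.25, and limma adjusted p = 1.0 without the block and 0.0433 with it. Tent5a, a non-canonical poly(A) polymerase, had 3.11 ± 0.97 (SE) and same-number values of 2.83, 2.24 and 4.27. Cxcl2, a neutrophil chemokine, had 2.57, and Cdk7, the kinase of TFIIH, 2.30. Nup37, a nucleoporin, had 2.47, from 1.55 in wild type and -0.92 in knockout. Its knockout change of 0.02 in number 2 kept it out of the rise and fall class. Ly96, the MD-2 partner of TLR4, was the steadiest of the genes called with that block and named here: 2.31, 2.10 and 2.23, with adjusted p = 0.00907 under it and 1.0 without it.

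**Figure D3:**
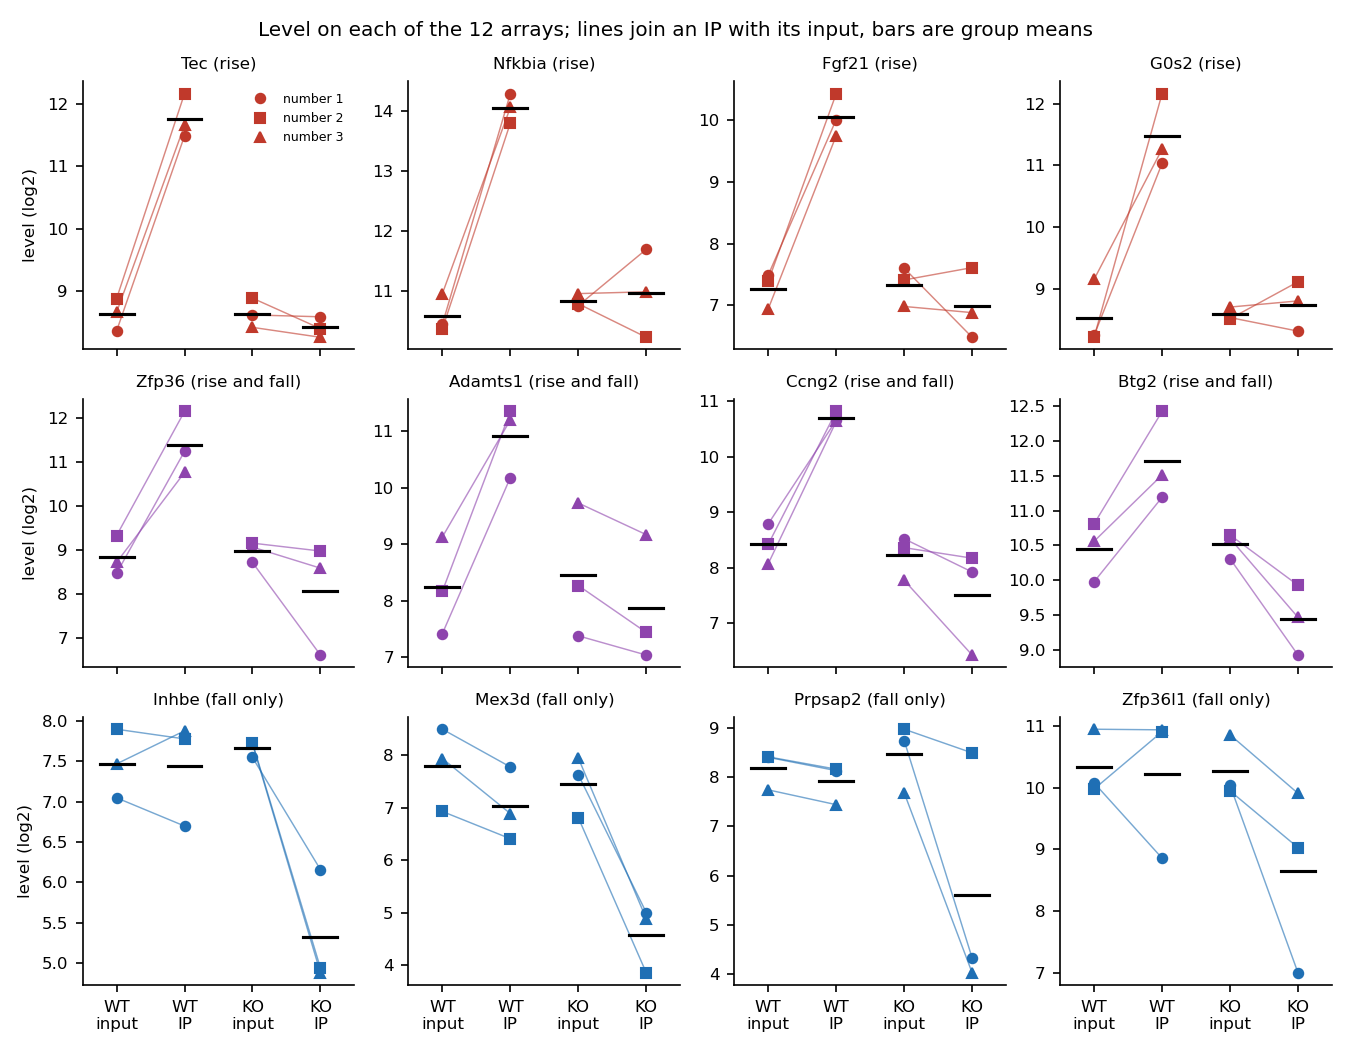
Level (log2) on each of the 12 arrays for 12 genes, 4 of each class in a row. Thin lines join an IP with the input of the same number, symbols give the number and black bars the group mean of 3 arrays. In the top row the wild-type IPs lie apart from the other arrays, in the bottom row most knockout IPs lie below them, and Prpsap2 and Zfp36l1 show how far a single number can differ.

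In the rise and fall class, Zfp36 encodes tristetraprolin, which binds AU-rich elements and brings CCR4-NOT to its targets. Levels were 8.46, 9.32 and 8.71 in wild-type input, 11.24, 12.15 and 10.76 in wild-type IP, 8.71, 9.15 and 9.06 in knockout input and 6.60, 8.97 and 8.58 in knockout IP. The wild-type IPs lay above all other arrays, and knockout IP 1 lay far below the other knockout IPs. Specific enrichment was 3.48 ± 0.79 (SE), the highest of any tested gene, and it was 4.89 in number 1 against 3.01 and 2.53 in the others. The limma adjusted p was 0.704, and 0.0699 with the number within fraction as block. Its paralogues differed from it in kind. Zfp36l1 had 1.53, from -0.10 in wild type and -1.63 in knockout, and Zfp36l2 had -0.06.

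The Zfp36 promoter is shown because this gene had the largest value and holds a match to the serum response element, the motif of the immediate early factor SRF. That motif stood in 0.965% of the windows of the high set, against 1.27% of all windows, so it is not a trait of the set. In the 200 bases before the RefSeq start (GRCm38.p6, chr7:28379229-28379428, minus strand) the match, in capitals, lies 58 to 49 bases before the start.
Zfp36: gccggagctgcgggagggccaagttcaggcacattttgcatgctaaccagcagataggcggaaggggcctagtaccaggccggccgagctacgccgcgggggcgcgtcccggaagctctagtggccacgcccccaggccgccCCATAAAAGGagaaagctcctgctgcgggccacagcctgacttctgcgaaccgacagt

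Btg2 encodes an antiproliferative adaptor that binds the CCR4-NOT deadenylases. It was at 9.98, 10.81 and 10.56 in wild-type input, 11.19, 12.42 and 11.51 in wild-type IP, 10.31, 10.65 and 10.60 in knockout input and 8.93, 9.93 and 9.47 in knockout IP. Here both IP groups were clear of the inputs, on opposite sides. Specific enrichment was 2.33 ± 0.54 (SE), with same-number values of 2.58, 2.33 and 2.08 and limma adjusted p of 0.712, or 0.0168 with the number within fraction as block. Ccng2, a cyclin that is induced in growth arrest, had 10.66, 10.82 and 10.64 in wild-type IP, at most 8.79 in any input, and 7.92, 8.17 and 6.42 in knockout IP. Its specific enrichment was 3.0 ± 0.61, with adjusted p of 0.365 and, under the block, 0.0461. Ddit4, an inhibitor of mTORC1 signalling, had 12.21, 11.48 and 10.99 in wild-type IP and 10.14, 7.47 and 7.64 in knockout IP, with inputs between 9.70 and 10.50. Its knockout IP of number 1 overlapped the inputs, and its value of 2.92 ± 0.85 had adjusted p = 1.0, or 0.0699 under the block. Without knockout IP array 1 limma called 4 genes in place of 1: Nfkbia, Tec, Bud13 and Ddit4.

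Adamts1, a secreted metalloprotease, had 10.18, 11.35 and 11.20 in wild-type IP and 7.04, 7.44 and 9.17 in knockout IP. Inputs ran from 7.38 to 9.73 and followed the number, with number 3 the highest in both genotypes. Specific enrichment was 3.25 ± 0.98 (SE, limma adjusted p = 1.0), and it was called with the preparation block and with the number within fraction block (0.0492). F3, tissue factor, had 3.23 and same-number values of 3.64, 3.63 and 2.40. Papolg, a nuclear poly(A) polymerase, had 2.93 (3.20, 3.22 and 2.36), with adjusted p = 0.00907 under the latter block and 1.0 without it. The gene of the canonical enzyme, Papola, had 0.15. Bud13, a splicing factor, had 2.53, Ier3, an early response gene of survival signalling, 2.52, and Adm, adrenomedullin, 2.47. The helix-loop-helix inhibitors, named after their values were seen, were close in size: 2.19 for Id1, 2.16 for Id2 and 2.15 for Id3, where Id3 was a rise gene and the others rise and fall.

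In the fall only class, Prpsap2, which encodes a regulatory subunit of phosphoribosyl pyrophosphate synthetase, had the highest value, 2.58 ± 1.29 (SE). Its levels were 8.40, 8.41 and 7.74 in wild-type input, 8.13, 8.16 and 7.44 in wild-type IP, 8.74, 8.97 and 7.68 in knockout input and 4.33, 8.49 and 4.03 in knockout IP. Numbers 1 and 3 gave 4.15 and 3.34 and number 2 gave 0.24, so the mean rests on 2 of the 3 numbers. Slbp, the histone mRNA stem-loop binding protein, was of the same kind, with 4.06, 0.39 and 1.72, and after quantile normalization it met neither step.

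Inhbe encodes an activin beta subunit made mainly by the liver. It was at 7.05, 7.90 and 7.47 in wild-type input, 6.70, 7.78 and 7.88 in wild-type IP, 7.55, 7.73 and 7.72 in knockout input and 6.16, 4.94 and 4.88 in knockout IP. The knockout IPs lay below all other arrays, and the wild-type IPs lay among the inputs. Specific enrichment was 2.33 ± 0.59 (SE, limma adjusted p = 0.994, and 0.231 with the number within fraction as block), close to that of Btg2 but with a wild-type change of -0.02. The knockout change was -2.34, with adjusted p = 0.0168 with the preparation block and 0.127 without. Other inhibin beta genes had 0.16 (Inhbb), 0.11 (Inhba) and -0.38 (Inhbc).

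Mex3d, an RNA-binding ubiquitin ligase, had 8.50, 6.93 and 7.94 in wild-type input, 7.78, 6.41 and 6.89 in wild-type IP, 7.63, 6.81 and 7.95 in knockout input and 5.0, 3.85 and 4.88 in knockout IP. Both precipitates were below their inputs in each number, by 0.76 on average in wild type and 2.89 in knockout. Its double differences of 1.90, 2.45 and 2.02 were the steadiest of the 10 highest fall only genes. A wild-type change of -0.5 or less was seen in 12 of the 99 fall only genes. The farthest was Net1, a RhoA exchange factor named after its values were seen, with -2.49 in wild type and -3.53 in knockout. Such a gene reaches the high set with both precipitates below input, the wild-type one less far.

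Of the 26 tested immediate early genes, 3 were in this class: Myc, Klf4 and Jun. Myc, a growth-promoting transcription factor, had 10.49, 12.12 and 11.73 in wild-type IP and 8.85, 9.70 and 10.53 in knockout IP, with inputs between 10.25 and 11.11. Its wild-type IP of number 1 was below its own input, which kept Myc out of the rise and fall class despite a mean wild-type change of 0.77. Specific enrichment was 1.80 ± 0.69, with limma adjusted p of 1.0, or 0.105 with the number within fraction as block. Jun had 1.42, from 0.32 in wild type and -1.10 in knockout, whereas Fos had 2.60, from 2.35 and -0.25. Junb, with 0.57 and -0.89, was rise and fall. Klf5 had 1.87 and Klf4 1.28, both with knockout changes of more than 1 below input. Epc2, a chromatin factor (2.20), Rad51b, a recombination protein (1.84), Exosc3, an exosome subunit (1.72), and Rnf145, a ubiquitin ligase of the endoplasmic reticulum (1.70), complete the 10 highest.

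**Figure D4:**
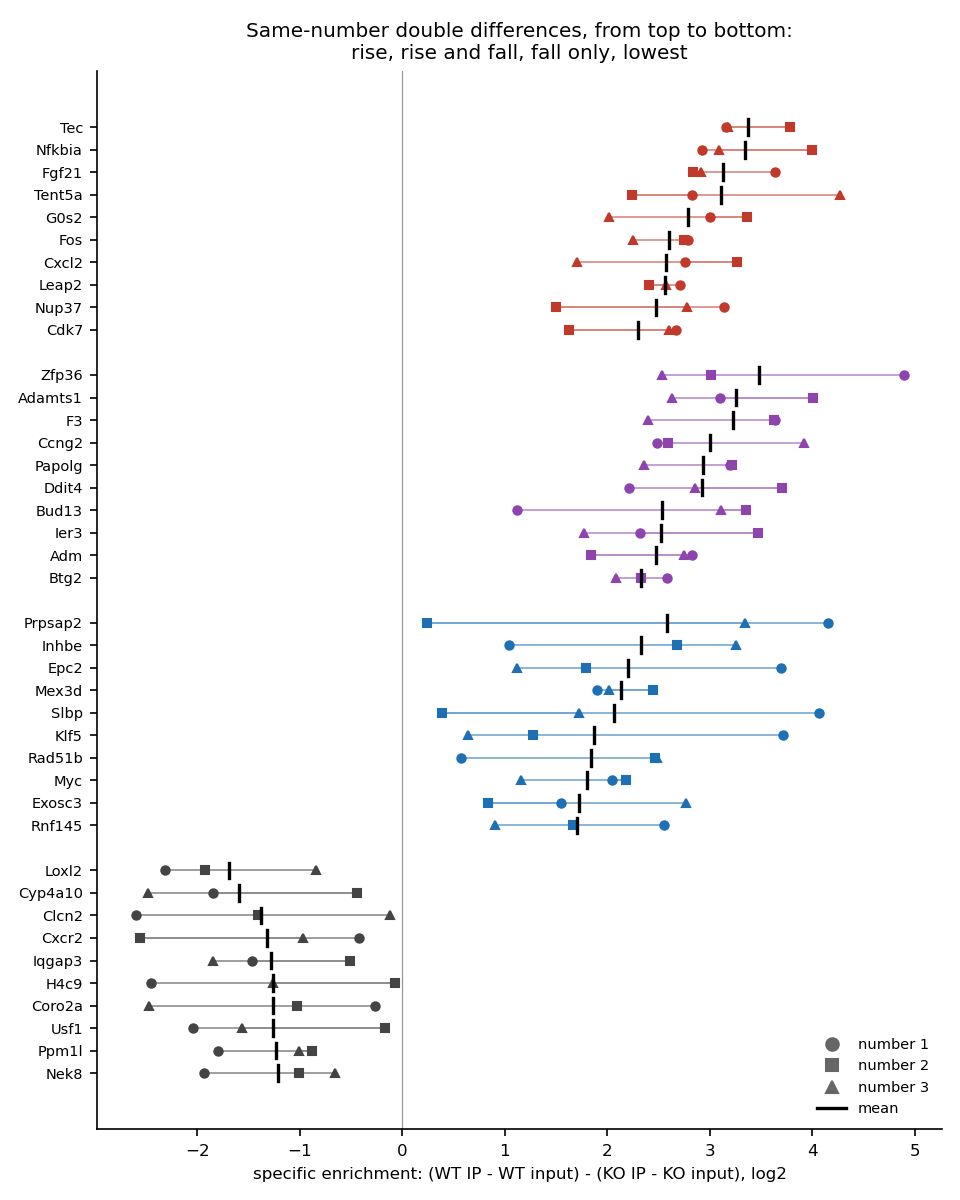
Double differences (log2) of the 3 replicate numbers for the 10 highest genes of each class and the 10 lowest genes, with the mean as a black bar. Rise and rise and fall genes lie at 1.12 or more in each number, whereas Prpsap2, Slbp, Rad51b, Klf5, Exosc3 and Rnf145 among the fall only genes have at least 1 number under 1.

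Some fall only genes were near the filter level in the knockout IP. The mean knockout IP level was under 5.57, the level of the filter, in 19 of 99 fall only genes (19.2%), 4 of 195 rise genes (2.1%) and 195 of 9496 tested genes (2.1%). The mean of the 6 inputs was under it in 0 fall only genes. The rule used the knockout IP levels, so these shares describe the class and test nothing. The 10th percentile of named probe sets was 3.85 to 4.26 in knockout IPs and 3.77 to 3.91 in wild-type IPs. The part of this in the fall only values was not tested.

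At the other end, the 32 genes of the low set had a median input level of 6.14, near the filter, against 8.16 for all tested genes, and 0 were called by limma. The set had 73, 133 and 68 genes without numbers 1, 2 and 3, where the rule asks for the sign in only 2 numbers. Of the 32, 9 were lower in the wild-type IP than in input by the mirrored steps (0.0948% of tested genes), 14 were higher in the knockout IP (0.147%), 2 met both (0.0211%) and 7 neither (0.0737%). Loxl2, a lysyl oxidase, had the lowest value, -1.69 ± 1.78 (SE). It was at 8.43, 7.72 and 11.02 in wild-type input, 5.42, 4.32 and 8.68 in wild-type IP, 7.98, 7.54 and 10.71 in knockout input and 7.29, 6.06 and 9.21 in knockout IP. Both precipitates were below their inputs in every number, the wild-type one farther. Ppm1l, a protein phosphatase, had -1.23 ± 0.40, with 5.58 to 5.99 in wild-type IP and 6.43 to 7.13 on all other arrays. Cyp4a10, a fatty acid omega-hydroxylase, had -1.59, and its wild-type inputs of 6.59, 10.05 and 6.25 followed the number. Clcn2, Cxcr2, Iqgap3, H4c9, Usf1, Coro2a and Nek8 had means between -1.38 and -1.21, and all of these 10 lowest had limma adjusted p = 1.0.

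Gene lists, in the order of the pathway from signal to target, were described by counts and medians beside those of all tested genes (0.05, with 55.8% above 0 and 3.99% in the high set). The lists were written with earlier results of these data known, so their shares and medians describe these lists and test nothing. Of 31 immediate early genes, 30 were on the array and 26 tested, and 24 were above 0 with a median of 0.99. They held 7 rise, 3 rise and fall and 3 fall only genes (50% in the high set). The list held 0 genes called by limma without a block (0.0105% of tested genes) and 3 with the number within fraction as block (0.358%): Fos, Irf1 and Csrnp1, an early nuclear factor. Irf1, an interferon-response factor, had 10.54, 11.16 and 10.86 in wild-type IP against at most 8.99 elsewhere, and a value of 1.94 ± 0.39 (adjusted p = 0.0461 under that block and 0.365 without). Atf3 (0.21), Egr3 (0.01), Jund (-0.05) and Nr4a1 (-0.07) of the same list were near 0, so the list was not uniform.

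The feedback inhibitors, phosphatases and adaptors that are induced by the pathway they switch off, had 24 of 26 tested members above 0 and a median of 0.71, with medians of 0.68, 0.90 and 0.46 in numbers 1, 2 and 3. They held 6 rise, 2 rise and fall and 0 fall only genes (30.8% in the high set). With the number within fraction block 4 were called (0.358% of tested genes were): Nfkbia, Socs3, Dusp1 and Dusp6. On the 3 double differences alone limma called 0 genes of any list. The MAP kinase phosphatase gene Dusp1 had 1.92 ± 0.39 (limma adjusted p = 0.365, and 0.0461 under the block), and Dusp6 2.27 ± 1.0 (1.0, and 0.0433 under the block). Dusp10 (0.24), Dusp7 (0.17), Dusp5 (0.17) and Dusp16 (0.13) had values near the median of all genes.

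The CCR4-NOT cofactor gene Btg2 and the phosphatase gene Dusp1 each hold a full cAMP response element, TGACGTCA, in the bases before their starts, and their promoters are shown for that element, in capitals. The Btg2 window is chr1:134079156-134079355 and the Dusp1 window chr17:26508473-26508672, both on the minus strand of GRCm38.p6. The element lies 166 to 159 and 143 to 136 bases before the RefSeq start.
Btg2: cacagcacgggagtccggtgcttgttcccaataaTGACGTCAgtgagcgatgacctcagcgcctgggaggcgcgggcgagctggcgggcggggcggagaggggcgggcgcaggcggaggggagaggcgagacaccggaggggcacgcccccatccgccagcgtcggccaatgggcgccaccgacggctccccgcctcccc
Dusp1: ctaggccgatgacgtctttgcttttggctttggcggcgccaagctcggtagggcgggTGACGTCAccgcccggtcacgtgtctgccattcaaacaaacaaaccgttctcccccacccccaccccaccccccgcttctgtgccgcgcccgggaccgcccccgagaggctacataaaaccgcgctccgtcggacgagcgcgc

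Motifs were searched on both strands of the 300 bases around the RefSeq start (250 before and 50 after): TGACGTCA, the AP-1 motif TGANTCA, the TATA box TATAAA, and the NF-κB and serum response motifs. A window was found for 7770 of 9496 tested genes (81.8%) and 164 of 195 rise genes (84.1%). TGACGTCA stood in 12 rise windows (7.32%), Dusp1 and Ppp1r15a among them, against 3.31% of all windows. The NF-κB motif stood in 18 (11%, against 7.72%), among them those of Nfkbia, Cxcl1, Cxcl2, Cxcl10, Bcl3, Irf1 and Fos, and the TATA box in 17 (10.4%, against 7.26%). The AP-1 motif stood in 6 (3.66%, against 4.88%) and the serum response element in 1 (0.61%, against 1.27%). In the high set, with windows for 311 of 379 genes (82.1%), TGACGTCA stood in 5.14%, the NF-κB motif in 9.65% and the TATA box in 9.32%. The AP-1 motif stood in 5.14% of them and the serum response element in 0.965%. These shares describe letters in a window. Windows covered 76.8% of rise and fall and 79.8% of fall only genes, under the 80% set as the minimum, so the check is void for those classes because too few members have a window.

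The complex itself and its partners were mixed. Of 13 CCR4-NOT subunit genes 11 were tested, with a median of 0.04 that turned to -0.06 after quantile normalization and -0.02 after median centring. Cnot8 (1.84) stood alone at the top and Cnot10 (-0.50) was the lowest. Of the BTG and TOB genes, 3 were on the array and tested, and Btg2 (2.33), Tob2 (0.88) and Tob1 (0.50) were all above 0. Proteins that bind AU-rich elements and other 3′ sites had a median of 0.20 over 15 tested genes of 26, with Zfp36 (3.48), Mex3d (2.13), Zfp36l1 (1.53) and Mex3c (1.20) the highest and Elavl1 (0.10), which encodes HuR, near the overall median. Of 35 tested mRNA decay genes 18 were above 0, with a median of 0.07 (-0.05 after quantile normalization). The decapping genes Dcp1a (1.26) and Edc3 (1.14) and the miRNA effector Tnrc6a (1.05) were rise genes, and Exosc3 was fall only.

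**Figure D5:**
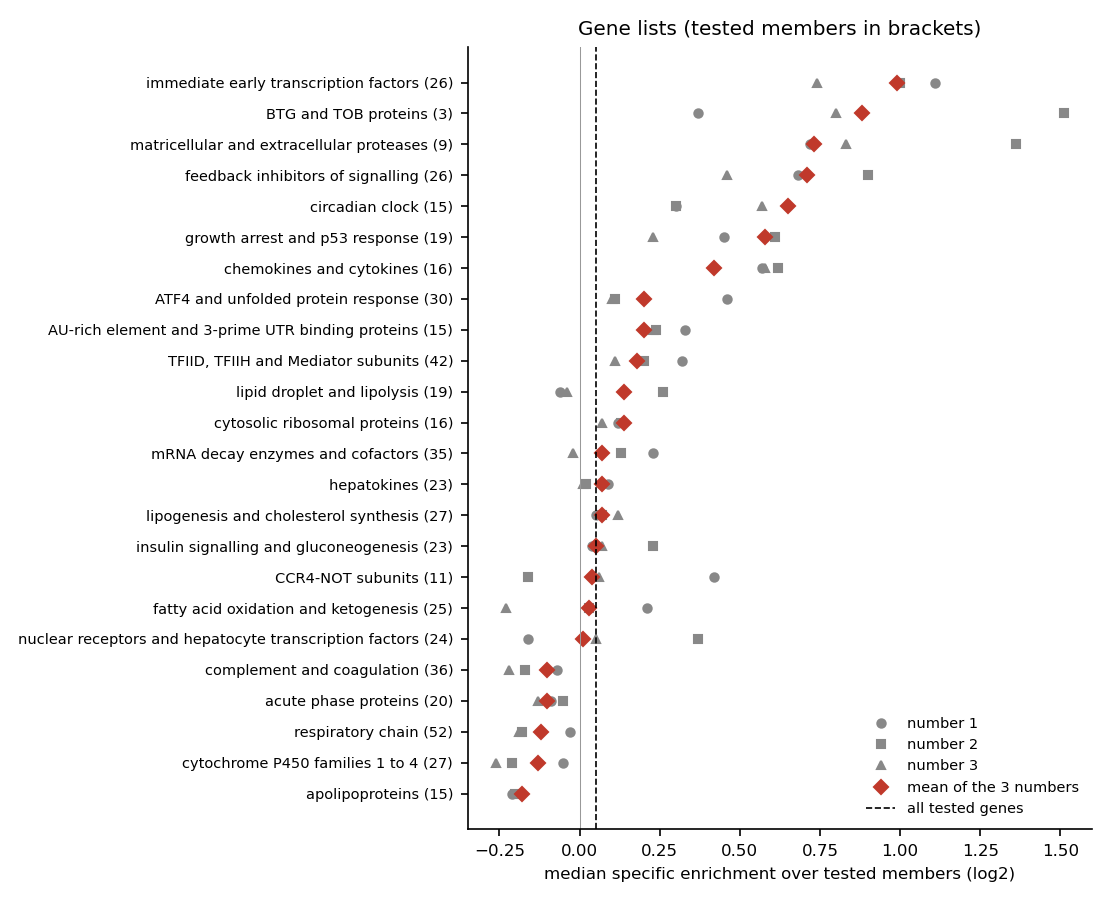
Median specific enrichment (log2) of the tested members of each gene list (diamond) with the medians within the 3 replicate numbers (grey symbols). The dashed line is the median of all tested genes, 0.05. Immediate early genes lie highest at 0.99 and apolipoproteins lowest at -0.18.

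Among the secreted and stress-response lists, chemokines and cytokines had a median of 0.42 over 16 tested of 26, 11 of them above 0 and 6 in the high set (37.5%). Leaving out 1 array or number moved that median between -0.05, without knockout input array 3, and 1.09, without wild-type input array 3. Cxcl2 (2.57), Cxcl1 (1.89), Ccl2 (1.69) and Ccl7 (1.32) were the highest, and Tnf was at -0.24. Tnf was above input by 0.86 in wild type and 1.10 in knockout, so its subtraction left nothing above 0. Hepatokines, the hormones of the liver, had a median of 0.07 over 23 tested of 29 (-0.02 after quantile normalization, and -0.15 to 0.24 on leaving out 1 array or number), with 4 in the high set (17.4%), Fgf21 and Inhbe among them. Growth arrest genes had a median of 0.58 over 19 tested of 21 (0.2, without wild-type IP array 2, to 0.8), with 15 above 0 and 5 in the high set (26.3%), and Ccng2 (3.0), the kinase gene Plk3 (2.07) and the apoptosis gene Bbc3 (1.51) above Cdkn1a (0.46) and Ccng1 (-0.11). The ATF4 and unfolded protein response list had a median of 0.20 over 30 genes (-0.05, without wild-type input array 1, to 0.47) and 4 in the high set (13.3%), with Ddit4 (2.92), Ppp1r15a (1.6), the phosphatase adaptor of the stress response, and Sesn2 (1.17) the highest. Atf4 (0.92) was not in the high set, and Ddit3 had -0.02. The chaperones Hspa5 (0.06) and Hsp90b1 (0.07) were at the overall median.

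Clock genes had a median of 0.65 over 15 tested of 21, and 13 were above 0, Per1 (1.47) and the casein kinase gene Csnk1e (1.16) the highest and Hlf (-0.30) the lowest. The median of the list was lower within each number, at 0.3, 0.3 and 0.57 in numbers 1, 2 and 3. Leaving out 1 array or number moved the 0.65 between 0.35 and 0.77. Transcription machinery genes (TFIID, TFIIH and Mediator) had a median of 0.18 over 42 tested of 46, and 31 were above 0. The high set held 9 of them (21.4%): Cdk7 (2.30), Taf5 (2.16), Tbp (1.82), Med31 (1.67) and Taf8 (1.19) were rise, Med4 (1.55) was rise and fall, and Med6 (1.27), Med23 (1.18) and Med27 (1.05) were fall only. With the number within fraction block Cdk7, Tbp, Med4 and Med31 were called (4 of 42, where 0.358% of tested genes were), and on the 3 double differences alone 0 were. Matricellular genes had 9 of 25 tested, with a median of 0.73 that was -0.54 without knockout input array 3, -0.35 without wild-type IP array 3, -0.01 without knockout IP array 1 and at most 1.63 without another array or number, and Ccn1 (2.32) and Ccn2 (1.19) stood beside Adamts1.

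Metabolic lists were near the overall median. Fatty acid oxidation had a median of 0.03 over 25 tested of 28 (-0.04 after quantile normalization), with Pdk4 (1.91), the kinase that shuts off pyruvate dehydrogenase, at the top and Cyp4a10 at the bottom. Lipogenesis and cholesterol synthesis had 0.07 over 27 tested of 36, with 0 genes in the high set. Insulin signalling and gluconeogenesis had 0.05 over 23 tested of 30 (-0.02 after median centring), with Ppp1r3b (0.79), a glycogen-targeting phosphatase subunit, the highest and the insulin receptor gene Insr (-0.79) the lowest. Of 19 tested lipid droplet genes of 22, the median was 0.14, and G0s2 stood far above its partner lipase gene Pnpla2 (0.01). Nuclear receptors and hepatocyte transcription factors had 0.01 over 24 tested of 34, which became -0.12 after quantile normalization and -0.05 after median centring.

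In 5 lists of abundant hepatocyte products the median was below that of all tested genes, and in 4 of them its sign depended on single arrays. Apolipoprotein genes had 1 of 15 tested members (of 18) above 0 and a median of -0.18, with means below input in both precipitates apart from Apom in knockout (0.35). Respiratory chain genes had 7 of 52 above 0 (of 60 in the list) and a median of -0.12, with Ndufa12 (-0.86) the lowest. Complement and coagulation genes had 9 of 36 above 0 (of 49) and a median of -0.10, cytochrome P450 genes 7 of 27 (of 43) and -0.13, and acute phase genes 7 of 20 (of 22) and -0.10. None of these 5 lists held a gene of the high set. Leaving out 1 array or number moved the median between -0.46 and 0.05 (without knockout input array 1) for apolipoproteins, -0.33 and 0.09 (the same array) for complement and coagulation, -0.27 and 0.09 (the same array) for acute phase genes and -0.70 and 0.27 (without knockout IP array 2, and also above 0 without wild-type input array 2, wild-type IP array 3 or knockout input array 3) for cytochrome P450 genes, while it stayed between -0.28 and -0.01 for the respiratory chain. Ribosomal protein genes differed in sign, with 12 of 16 tested (of 77) above 0 and a median of 0.14, which was -0.14 without wild-type input array 3, -0.04 without wild-type IP array 2 and 0.38 without wild-type IP array 3. Quantile normalization moved the median of all tested genes from 0.05 to -0.03, and 0 members of any of these lists were called by limma without a block or with the number within fraction as block.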

How the data were processed

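RNA of 12 samples was hybridised to Affymetrix Mouse Genome 430 2.0 arrays from biotinylated cRNA made of 10 µg total RNA, per the labels' protocols. The range of the deposited values shows a log2 scale. The sources used here do not give how the authors corrected background, normalized or summarised them. Of 16539 probe sets, 64 were controls, 15780 had 1 gene symbol, 0 had several and 695 were unnamed; 15752 matched the RefSeq table (GRCm38.p6). Genes with a mean at or above the 40th percentile (5.57) were tested. The group-means model was fitted with limma 3.58.1 in R 4.3.3 (8 residual degrees of freedom), adjusted by Benjamini-Hochberg over 9496 genes, two-sided; SE is from that fit and n = 3 arrays per group throughout. The replicate blocks had 4 residual degrees of freedom and the 3 double differences 2. Medians, exact tests and figures used Python 3.11.15, scipy 1.17.1 and matplotlib 3.10.9. The fit was tested on simulated data. Precision is limited by having 3 arrays per group.

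Same-numbered arrays deviated together (18 pairs, r from 0.453 to 0.936, median 0.672), so the numbers pair the samples; that an IP and its input share a preparation comes from the series text. The members, classes, 24 gene lists and 8 marker lists were chosen with earlier results of these data known. Named genes are those called with or without a replicate block, the 10 highest of each class and 10 lowest, Cnot6l, Tec, Nfkbia and Fgf21, the up to 4 most extreme members of a described list and close relatives set against them; others, such as Id1 to Id3, Net1, Taf8, Cxcl10 and members from the middle of a list, were chosen after their values were seen. Genes with only clone names are counted and not named. Of the genes called with the number within fraction as block, those the text does not turn on are counted only.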

Additional observations from a re-analysis of the deposited data

Results flagged for a closer look

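Tec had a specific enrichment of 3.37 on the log2 scale, which is the test of whether IP minus input differs between the genotypes, and it was the gene called by limma (adjusted p = 0.0219, with 23 alternatives from 0.00907 to 1.0). The wild-type IP was above its input in 3 of 3 numbers, by 3.15 on average, and the knockout IP below its input in 3 of 3, by 0.22.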

How the results depend on the processing

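With the preparation, the number within fraction or the 3 double differences as replicate block, specific enrichment had 2, 34 and 0 genes called higher by limma in place of 1, and 0 lower in each. Leaving out single arrays or whole numbers gave 0 to 4. Wild-type IP minus input had 229 and 741 called higher and 438 and 1448 lower with the preparation and the number within fraction as replicate block, in place of 10 and 0, 16 higher after quantile normalization, and 1 lower after median centring and 2 with a filter at the 60th percentile. Without single arrays or numbers these were 0 to 11 higher and 0 to 3 lower. Knockout IP minus input had 69 and 429 higher and 501 and 1688 lower with the same blocks, in place of 0 and 0. An IP and its input lie in different number within fraction blocks, so that fit's residual leaves out the spread between numbers that IP minus input needs, and its 741, 1448, 429 and 1688 calls are too many and support nothing. Knockout IP minus input also had 35 higher and 17 lower with no filter, and 0 to 2 lower without single arrays or numbers. The high set had 134 genes at thresholds of 1.5 and 0.75 and 588 at 0.8 and 0.4, and 447 to 531 without a number. The rise class had 95 at 1.5, and 170 to 240 without a number. Rise and fall had 30 genes after quantile normalization and 17 at 1.5, and 76 to 91 without a number. Fall only had 60 with the 60th percentile filter, 20 at 1.5 and 183 at 0.8, and 113 to 241 without a number. The low set had 61 after quantile normalization, 191 with no filter, 3 with the 60th percentile filter, 2 at 1.5 and 76 at 0.8, and 68 to 133 without a number. The cause of these changes was not tested. By design, the blocks leave fewer degrees of freedom and remove the spread between numbers, and the stricter filter tests fewer genes. Without a number, the class rule asks for the same sign in 2 numbers in place of 3, which is looser. No result passed the threshold with the opposite sign. Values that were not called did change sign, such as those of Cyp1a2 (-0.97 to 2.62) and Apob (-1.87 to 0.44). Of the settings for counts, 147 kept within 1.5 times the count and 65 moved beyond it. Of those for single genes and lists, 3551 kept their side, 22 gained and 14 lost the threshold (all 14 of them Tec) and 166 moved by more than the spread. A single gene could keep its side of the threshold while its value changed sign. With 3 arrays a group and values near the filter level, dim genes such as those of the low set are the least certain.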
